A study of Mus musculus with 15 samples.

Results

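The meiotic recombination genes Rec8, Smc1b, Stag3, Sycp1, Sycp3, Hormad1, Spo11, Dmc1, Msh4 and Msh5 were read by gene symbol from the 2 deposited expression tables. They are 10 of the 51627 genes in the table of mouse embryonic stem cells (ESCs) and 10 of the 53564 genes in the table of 2-cell embryos. Every one of the 10 symbols was found in both tables. Messenger RNA was compared in 15 libraries. In the stem cell experiment, 2 libraries carried the genotype label Zscan4 OE (overexpression) and 2 were wild type controls. All 4 came from J1 cells, a mouse ESC line, grown without feeder cells and labelled with passage PN+8. In the embryo experiment, 6 libraries carried the label Zscan4 RNAi and 5 were wild type controls, all from 2-cell embryos. The labels give neither the overexpression construct, nor the RNAi sequence, nor how many embryos went into a library. They also name genomic DNA as the library source, a transposase-based DNA library kit and, for the embryos too, the stem cell growth conditions, while each title says RNA-Seq. No label says whether replicates are separate cultures or embryo pools; the p-values therefore rest on the spread among these libraries, which may be technical.

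In meiotic prophase the chromosomes are cut on purpose and repaired from the homologous chromosome. Spo11 makes the double-strand breaks, Dmc1 coats the broken ends and finds the homologue, and Msh4 with Msh5 stabilises the joined molecules that become crossovers. Rec8, Smc1b and Stag3 are meiotic versions of cohesin subunits, Sycp3 and Hormad1 lie along the chromosome axes, and Sycp1 forms the transverse filaments that zip the axes together. Mouse ESCs and early embryos do not pass through meiotic prophase. The oocyte, which is in meiosis until fertilisation, leaves transcripts to the embryo, and transcripts of some of these genes are known from ESCs. Zscan4, a zinc finger gene family with SCAN domains, has been linked to raised meiosis-specific transcripts and telomere recombination in ESCs.

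The labels were checked on Zscan4 itself. The 9 Zscan4 genes and pseudogenes together had 20005 and 19449 normalised reads in the Zscan4 OE libraries, against 152 and 212 in the control ESC libraries. In embryos the sum was 230 ± 142 in Zscan4 RNAi (SD, n = 6) and 734 ± 272 in controls (SD, n = 5). A normalised read is a gene's read count divided by a size factor of its library, as deposited. Gene-assigned reads numbered 21820093 to 26555027 in the ESC libraries and 695524 to 1432566 in those of embryos. On the normalised scale the step per read was similar, at 0.912 to 1.19 in ESC libraries and 0.687 to 1.39 in embryo libraries. At the lower embryo depth, low genes rest on few reads, so each read more or less is a large part of their value. The embryo library in the control column numbered 5, called control 5 here, had 345 normalised reads of Zscan4. This was the lowest of the controls and below 2 of the 6 RNAi libraries. Control 5 also stood apart over all genes. Chi-square per degree of freedom was 15.5 to 21.6 between it and the other controls, and 7.14 to 11.9 among those. It had reads for 18673 genes, the most of the controls. Pairs of Zscan4 RNAi libraries had a chi-square per degree of freedom of 9.81 to 24.8. Fits without control 5 are given for Sycp1, Hormad1, Sycp3 and Msh5 only, the genes of the 10 called in that fit.

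Promoter sequence is shown for the 4 genes whose levels passed the test in either experiment: Rec8 and Sycp3 in ESCs, Sycp1 and Hormad1 in embryos. Each window runs from 250 bases before to 50 bases after the RefSeq transcript start (RefSeq, GRCm38.p6) and is printed 5′ to 3′ in the direction of transcription. Capitals mark 2 short motifs searched on both strands: TCCCGC, or GCGGGA on the other strand, the core of E2F family sites, and CACGTG, the E-box of the MGA and MAX proteins. E2F6 and MGA belong to a repressor complex known to keep meiosis genes silent in mouse ESCs. The windows are chr14:55617916-55618215 on the plus strand for Rec8, chr10:88459337-88459636 on the plus strand for Sycp3, chr3:102936051-102936350 on the minus strand for Sycp1 and chr3:95559427-95559726 on the plus strand for Hormad1.
Rec8: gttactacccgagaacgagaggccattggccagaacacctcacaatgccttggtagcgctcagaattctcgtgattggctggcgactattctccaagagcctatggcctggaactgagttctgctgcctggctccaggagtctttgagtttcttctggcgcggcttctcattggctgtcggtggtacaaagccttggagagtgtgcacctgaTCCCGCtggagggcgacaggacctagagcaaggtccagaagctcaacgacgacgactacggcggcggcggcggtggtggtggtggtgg
Sycp3: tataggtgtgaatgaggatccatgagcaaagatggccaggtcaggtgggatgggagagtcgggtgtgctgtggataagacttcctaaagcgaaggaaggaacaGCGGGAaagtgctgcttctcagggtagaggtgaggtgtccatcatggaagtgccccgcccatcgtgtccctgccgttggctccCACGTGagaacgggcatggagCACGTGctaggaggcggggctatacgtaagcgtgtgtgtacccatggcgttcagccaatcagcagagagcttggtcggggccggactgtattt
Sycp1: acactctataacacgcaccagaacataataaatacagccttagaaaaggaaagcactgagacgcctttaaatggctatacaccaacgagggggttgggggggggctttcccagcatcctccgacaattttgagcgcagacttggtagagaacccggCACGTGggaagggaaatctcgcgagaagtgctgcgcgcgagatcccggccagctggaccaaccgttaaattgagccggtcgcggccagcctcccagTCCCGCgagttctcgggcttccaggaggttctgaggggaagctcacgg
Hormad1: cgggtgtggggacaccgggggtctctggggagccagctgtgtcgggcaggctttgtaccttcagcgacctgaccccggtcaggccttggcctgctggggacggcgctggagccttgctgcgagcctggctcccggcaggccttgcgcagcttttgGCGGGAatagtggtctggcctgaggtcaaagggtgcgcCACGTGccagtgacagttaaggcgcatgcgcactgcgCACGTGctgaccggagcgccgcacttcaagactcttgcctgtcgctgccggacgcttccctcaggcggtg
The Rec8 window holds TCCCGC once, 38 bases before the start, and no CACGTG. The Sycp3 and Hormad1 windows each hold 1 TCCCGC and 2 copies of CACGTG, and the Sycp1 window holds 1 of each. A window was found for 9 of the 10 genes, Spo11 having none. TCCCGC was present in 8 of these 9, all but Msh4, against 22.0% of the 27025 genes with a window, and in all 3 mitotic cohesin genes with a window, Smc1a, Smc3 and Stag1. CACGTG was present in 4 of the 9, namely Stag3, Sycp1, Sycp3 and Hormad1, against 8.09% of all genes, and in none of the 3 mitotic cohesin genes with a window. Both motifs stood in the same window in these 4 genes and in 2.32% of all genes. The motif TCCCGC is common where CG pairs are dense: the 8 windows that hold it have 15 to 30 CG pairs, and among all 11378 windows with at least 15 such pairs, 45.4% hold TCCCGC and 11.3% hold CACGTG. The Msh4 window has 6 CG pairs. These matches describe the sequence only, and nothing about binding was measured.

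In control ESCs the 10 genes lay at very different levels. Per kilobase of exon, Stag3 stood highest of the 10 with a mean of 830 normalised reads, above 93.0% of the genes tested, followed by Sycp3 with 543, Hormad1 with 482, Rec8 with 374 and Smc1b with 313. Dmc1 followed with 71.7 and Sycp1 with 40.1 normalised reads per kilobase, in the middle of the range of all genes. Msh5 had 6.92, Msh4 had 3.84 and Spo11 had 0.482. The structural genes of the meiotic chromosome were thus well above the genes that make and process breaks, except that Sycp1 lay below Dmc1. In control embryos the order per kilobase was Sycp3 (154), Hormad1 (30.0), Smc1b (12.2), Sycp1 (11.7), Msh5 (3.16), Msh4 (2.86), Stag3 (2.63), Dmc1 (0.764) and Rec8 (0.200), with no Spo11 read. The tables were scaled separately, so only the orders can be set side by side. Sycp3 shares exon bases with a gene on the opposite strand, so its place in both orders is uncertain. Smc1b and Sycp1, and likewise Msh5, Msh4 and Stag3, lay within each other's spread between control embryo libraries.

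The first comparison asks how the 10 genes differ when ESCs carry far more Zscan4. Rec8 and Sycp3 fell with Zscan4 overexpression, by 5.70-fold and 4.66-fold, and none of the 10 rose, where 11.7% of all genes tested did. The test was limma on log2(normalised reads + 1), with Benjamini-Hochberg adjusted p below 0.05. It covered 20888 genes with at least 1 normalised read in at least 2 libraries. Values written as x-fold, here and below, are ratios of the group means of normalised reads. The log2 fold changes are those of the test, which compares mean log2 values, and can differ from these ratios. The added 1 makes log2 fold changes understate the change of low genes. All 10 genes passed the filter, and 2 were called, both lower, where 23.2% of all genes tested were called and 11.4% were called lower. The median log2 fold change of the 10 was -0.74, against -0.02 over all genes tested. In 8 of the 10 genes, all but Sycp1 and Hormad1, both overexpression libraries lay below both controls. Among them, Spo11 had 1 read in Zscan4 OE against 4 in control in all. Msh4 was barely separated, at 17.9 normalised reads in Zscan4 OE library 2 against 18.7 in control library 2. Of all genes tested, 34.6% did so, 34.2% lay above both controls and 68.8% separated in either direction. In bulk libraries, fewer cells that transcribe a gene and less RNA per cell cannot be told apart.

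**Figure D1:**
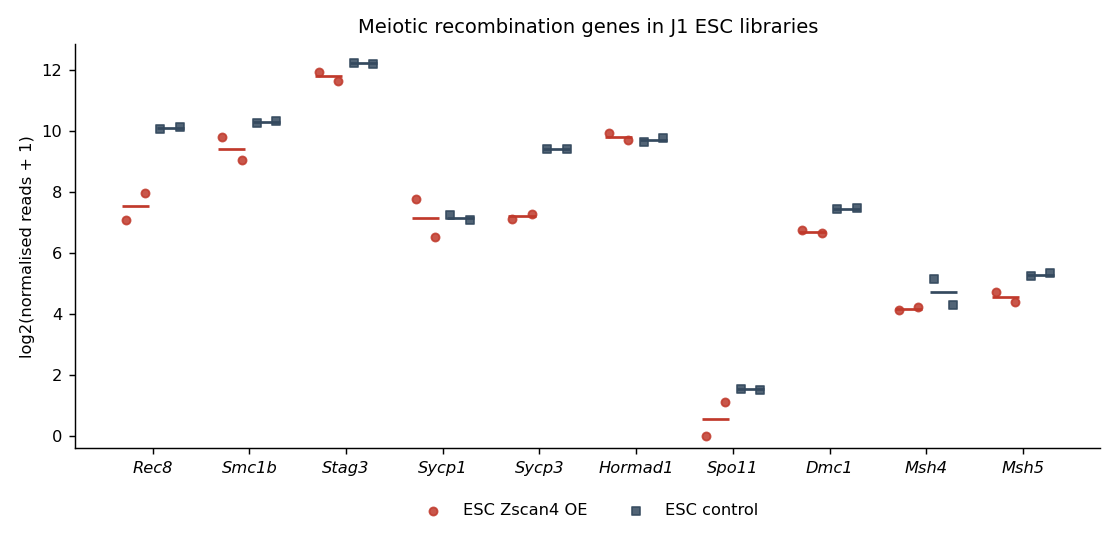
Levels of the 10 genes in the 4 J1 ESC libraries, as log2(normalised reads + 1) on the vertical axis, with each point a library and each bar the group mean. The Zscan4 OE points of Rec8 and Sycp3 sit far below the control points, whereas those of Sycp1 and Hormad1 overlap with the controls.

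Among the cohesin genes, Rec8 (chr14:55618037-55625395, GRCm38), the kleisin that closes the meiotic cohesin ring, had 134 and 252 normalised reads in the Zscan4 OE libraries, against 1072 and 1123 in control ESCs. Both overexpression libraries lay far below both controls. Its log2 fold change was -2.57 (SE 0.35, limma adjusted p = 0.0193), with means of 193 ± 83.1 in Zscan4 OE and 1098 ± 36.0 in control (SD, n = 2 each). Rec8 thereby stood above 56.9% of the genes tested per kilobase in Zscan4 OE, against 84.5% in control. Smc1b (chr15:85064689-85131964), a meiotic SMC subunit, had 887 and 531 normalised reads in Zscan4 OE, against 1236 and 1299 in control. The groups did not overlap, but the overexpression libraries lay far apart and the log2 fold change of -0.88 (SE 0.30) missed the threshold in limma (adjusted p = 0.0985). Stag3 (chr5:138280240-138312393), the meiotic SA subunit, had 3945 and 3216 normalised reads in Zscan4 OE, against 4842 and 4670 in control. Its groups did not overlap either, and its log2 fold change of -0.42 (SE 0.18) was not called (adjusted p = 0.158, limma).

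Among the genes of the axis and the synaptonemal complex, Sycp3 (chr10:88459569-88473236), the main axis protein, had 139 and 156 normalised reads in Zscan4 OE, against 688 and 685 in control. The 2 libraries within each group were close and the groups were far apart. The log2 fold change was -2.21 (SE 0.20, limma adjusted p = 0.0123), with means of 147 ± 12.5 in Zscan4 OE and 686 ± 1.70 in control (SD, n = 2 each). The exons of Sycp3 overlap those of Chpt1, a phospholipid synthesis gene on the opposite strand, over 660 of their 1264 bases, and the strand setting of the counting is not given, so the Sycp3 level is uncertain. Chpt1 itself averaged 299 ± 10.4 normalised reads in Zscan4 OE and 271 ± 10.05 in control (SD, n = 2 each), a log2 fold change of 0.14 that was not called (adjusted p = 0.626, limma). Sycp1 (chr3:102818499-102936100) had 219 and 90.6 normalised reads in Zscan4 OE, against 150 and 136 in control. The overexpression libraries lay on both sides of the controls, and the log2 fold change was -0.02 (SE 0.49, adjusted p = 0.985, limma). Hormad1 (chr3:95559677-95587671), a HORMA-domain protein of unsynapsed axes, had 975 and 831 normalised reads in Zscan4 OE, against 792 and 875 in control. The groups overlapped, with a log2 fold change of 0.11 (SE 0.18, adjusted p = 0.686, limma).

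Among the genes that act on the breaks, Spo11 (chr2:172977700-172993576), the break-forming enzyme, was barely read. It had 0 and 1.19 normalised reads in Zscan4 OE, against 1.90 and 1.87 in control. This is 1 read against 4 reads in all, a ratio of depth-scaled reads of 0.274 with an exact 95% interval of 0.006 to 2.76, so no difference was detectable at this depth. The interval covers counting error only. Dmc1 (chr15:79561497-79605109), the meiotic strand exchange enzyme, had 107 and 99.0 normalised reads in Zscan4 OE, against 173 and 176 in control. The groups did not overlap and both were tight, but the log2 fold change of -0.76 (SE 0.23) missed the threshold (limma adjusted p = 0.0816). Msh4 (chr3:153857149-153906138) had 16.4 and 17.9 normalised reads in Zscan4 OE, against 34.3 and 18.7 in control, with log2 fold change -0.54 (SE 0.46, limma adjusted p = 0.425). Its partner Msh5 (chr17:35028605-35046745) had 25.5 and 20.3 normalised reads in Zscan4 OE, against 37.1 and 39.3 in control, with log2 fold change -0.72 (SE 0.35, limma adjusted p = 0.197). Both MutS genes thus lay lower in both overexpression libraries without passing the test, and Msh4 shares 125 exon bases with a gene on the opposite strand.

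These calls depended on which library was left out and on the genes tested. The overexpression libraries differed from each other much more than the controls did, with a chi-square per degree of freedom of 128 between the Zscan4 OE libraries and 2.69 between the control libraries. With the same genes tested and either control left out, limma called no gene at all (3617 and 3646 genes had an unadjusted p below 0.05) and Rec8 and Sycp3 had adjusted p of 0.252 to 0.260. With the filter applied again to the remaining libraries, an alternative added after seeing the data, both were called without either control (adjusted p = 0.0014 and 0.0020 for Rec8, 0.0120 and 0.0121 for Sycp3, limma). Without overexpression library 1 and without library 2, the log2 fold change was -2.12 and -3.02 for Rec8 and -2.13 and -2.30 for Sycp3. In the same 2 fits it was -1.25 and -0.51 for Smc1b, -0.56 and -0.27 for Stag3 and -0.81 and -0.71 for Dmc1. That of Sycp1 changed sign, at -0.65 and 0.62. A group reduced to 1 library is assumed to vary like the other group, so calls from such fits carry little weight. Markers of other cells were summed in the same libraries. Germ cell markers outside meiosis summed to 3370 to 4330 normalised reads over 12 genes in Zscan4 OE, against 5116 to 5173 in control, with none of the 12 at 0 in either group. Pluripotency markers summed to 79182 to 91238 over 6 genes in Zscan4 OE, against 66583 to 66731 in control. Fibroblast markers over 10 genes summed to 28270 to 46711 in Zscan4 OE, against 36277 to 39266 in control, where Postn, Lum and Dcn were at 0. Within that list Col1a2 (4.86-fold) and Col3a1 (7.005-fold) were called higher and Pdgfrb (5.92-fold) and Thy1 lower by limma. Cumulus and granulosa markers over 12 genes summed to 2457 to 3532 in Zscan4 OE, where Cyp19a1 was at 0, against 1579 to 1601 in control. Gja1, with means of 2566 in Zscan4 OE and 1104 in control, made up most of these sums. By limma, Gja1 (2.33-fold) and Tnfaip6 (14.4-fold) were called higher and Inha (3.69-fold) lower. The part of these markers in the lower Rec8 and Sycp3 was not tested.

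The second comparison asks the same of 2-cell embryos with less Zscan4. Sycp1 and Hormad1 fell with Zscan4 RNAi, by 4.76-fold and 3.0-fold as ratios of means. None of the 7 genes that could be tested was called higher. On the log scale of the test both had a log2 fold change of -1.83. The filter, at least 1 normalised read in at least 5 libraries, left 16417 genes and 7 of the 10; Spo11, Dmc1 and Rec8 were below it. Of the 7, 2 were called, both lower, where limma called 18.2% of all genes tested, 12.0% lower and 6.13% higher. The median log2 fold change of the 7 was -1.11, against -0.03 over all genes tested. In none of the 7 did the RNAi and control libraries separate without overlap, where 7.33% of all genes did, 4.28% with RNAi lower and 3.05% with RNAi higher.

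**Figure D2:**
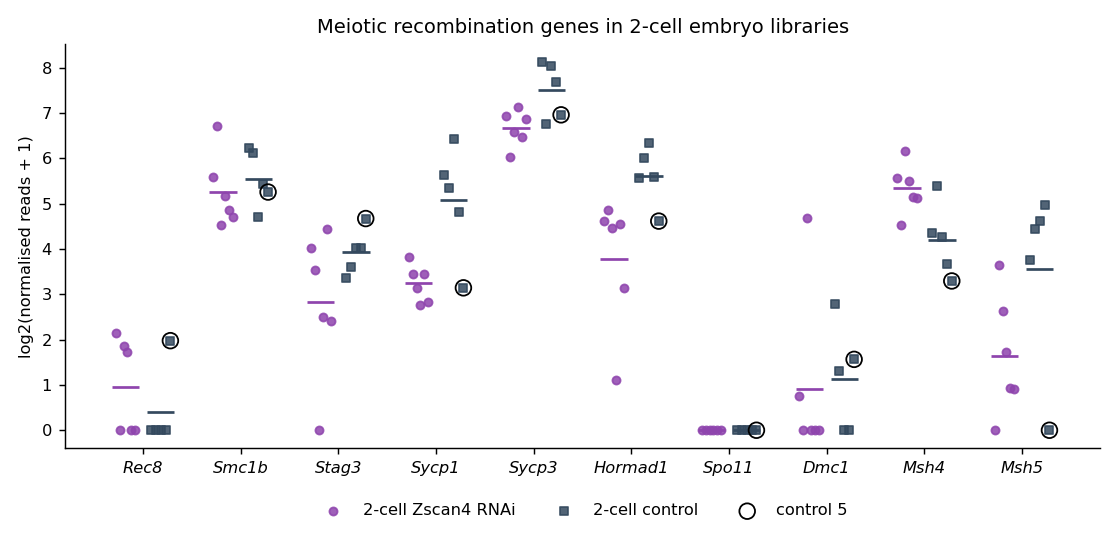
Levels of the 10 genes in the 11 embryo libraries, as log2(normalised reads + 1) on the vertical axis, with each point a library, each bar a group mean and control 5 ringed. In Sycp1, Hormad1 and Msh5 control 5 sits lowest of the controls, and in Msh4 most Zscan4 RNAi points sit above most control points.

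Of the synaptonemal complex and axis genes, Sycp1 had 5.80 to 13.0 normalised reads in the 6 Zscan4 RNAi libraries (median 8.83), against 48.6, 39.8, 84.9, 26.9 and 7.82 in controls 1 to 5. The RNAi libraries were all low, and control 5 alone among the controls lay in their range. The log2 fold change was -1.83 (SE 0.53, limma adjusted p = 0.0231), with means of 8.75 ± 2.75 in Zscan4 RNAi (SD, n = 6) and 41.6 ± 28.6 in control (SD, n = 5). Without control 5 the log2 fold change was -2.32 (limma adjusted p = 0.00285), and without control 1, 2 or 3 the call was lost (adjusted p = 0.0624, 0.0602 and 0.0829). Hormad1 had 1.16 to 27.9 normalised reads in Zscan4 RNAi (median 21.7), against 46.1, 63.4, 79.3, 46.8 and 23.5 in controls 1 to 5. Again control 5 was the only control inside the RNAi range, while RNAi library 4 stood lowest of all. The log2 fold change was -1.83 (SE 0.59, limma adjusted p = 0.0358), with means of 17.3 ± 10.4 in Zscan4 RNAi (SD, n = 6) and 51.8 ± 20.9 in control (SD, n = 5). This call was the less stable: it was lost without RNAi library 4 or 6, without any of controls 1 to 4, and under quantile normalisation, with adjusted p of 0.0515 to 0.0951. Without control 5 the log2 fold change of Hormad1 was -2.08 (limma adjusted p = 0.0223).

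Sycp3 had 64.0 to 138 normalised reads in Zscan4 RNAi (median 105), against 276, 106, 262, 205 and 123 in controls 1 to 5. Controls 2 and 5 lay within the RNAi range and the other 3 above it. The log2 fold change of -0.84 (SE 0.33) missed the threshold (limma adjusted p = 0.0754), but passed without control 5 (-0.98, adjusted p = 0.0420) and with DESeq2 on all libraries (-0.91, adjusted p = 0.0393). Chpt1, which overlaps Sycp3, averaged 66.6 ± 12.7 normalised reads in Zscan4 RNAi (n = 6) and 119 ± 47.0 in control (SD, n = 5). Its log2 fold change of -0.76, close to that of Sycp3, was not called (limma adjusted p = 0.105). Chpt1 had 152, 77.5, 182, 108 and 75.3 in controls 1 to 5, and was lowest in controls 2 and 5, as Sycp3 was. The strand setting is not given, so reads of the shared exon bases cannot be told apart. The level and change of Sycp3 in embryos are therefore uncertain. Cumulus and granulosa cell markers summed to 9.55 to 38.5 normalised reads over 12 genes in Zscan4 RNAi, against 36.9 to 107 in control. In each group 5 of the 12 were at 0, among them Amh, Inha, Inhba and Has2. Amhr2 alone averaged 7.04 in Zscan4 RNAi and 37.1 in control, and was the only gene of this list called (limma adjusted p = 0.00984). Fibroblast markers summed to 24.03 to 55.7 over 12 genes in Zscan4 RNAi and 21.1 to 37.1 in control, and germ cell markers outside meiosis to 263 to 810 over 12 genes in Zscan4 RNAi and 225 to 345 in control. The part of these markers in the levels of Sycp1 and Hormad1 was not tested.

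Of the cohesin genes, Smc1b had 22.2 to 104 normalised reads in Zscan4 RNAi (median 31.4), against 73.8, 67.9, 25.05, 42.1 and 37.2 in controls 1 to 5, a log2 fold change of -0.28 (SE 0.43, limma adjusted p = 0.687). The ranges lay inside each other, with RNAi library 2 the highest of all 11. Stag3 had 0 to 20.7 normalised reads in Zscan4 RNAi (median 7.65), against 9.22, 11.1, 15.3, 15.2 and 24.4 in controls 1 to 5, a log2 fold change of -1.11 (SE 0.68, limma adjusted p = 0.263). Control 5 was here the highest control. Rec8 was almost unread, with 9 reads over the Zscan4 RNAi libraries and 3 over the controls, a ratio of depth-scaled reads of 2.35 with an exact 95% interval of 0.587 to 13.5 that covers counting error only. Its 3 control reads were all in control 5.

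Of the genes that act on the breaks, Spo11 had no read in any of the 11 embryo libraries. Dmc1 had 20 reads over the Zscan4 RNAi libraries and 11 over the controls, a ratio of depth-scaled reads of 1.42 (exact 95% interval 0.651 to 3.29), and nearly all of the RNAi reads were in RNAi library 3, at 24.8 normalised reads. Msh4 had 22.1 to 70.4 normalised reads in Zscan4 RNAi (median 39.2), against 19.3, 40.6, 18.1, 11.7 and 8.80 in controls 1 to 5. All RNAi libraries lay above every control but control 2. The log2 fold change was 1.15 (SE 0.44), the only positive value among the 7, and missed the threshold (limma adjusted p = 0.0720); it passed without control 2 (1.44, adjusted p = 0.0439), without RNAi library 2 (1.31, adjusted p = 0.0437) and under quantile normalisation (adjusted p = 0.0320). Msh5 had 0 to 11.5 normalised reads in Zscan4 RNAi (median 1.61), against 12.6, 20.7, 23.7, 30.4 and 0 in controls 1 to 5. All RNAi libraries lay below controls 1 to 4, and control 5 had no read. The log2 fold change of -1.92 (SE 0.85) was not called (limma adjusted p = 0.117), and without control 5 it was -2.81 (adjusted p = 0.00983). Msh4 and Msh5, which act as a pair in meiosis, thus had fold changes of opposite sign in the embryos. The number of the 7 genes called ranged from 0, without control 1 or 3, to 4, without control 5. In that last fit 21.8% of all genes were called, and the 4 were Sycp1, Hormad1, Sycp3 and Msh5. Over all fits leaving out 1 library, the log2 fold change ranged over 0.92 to 1.44 for Msh4. It ranged over -1.44 to -0.55 for Stag3 and -0.57 to -0.11 for Smc1b.

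**Figure D3:**
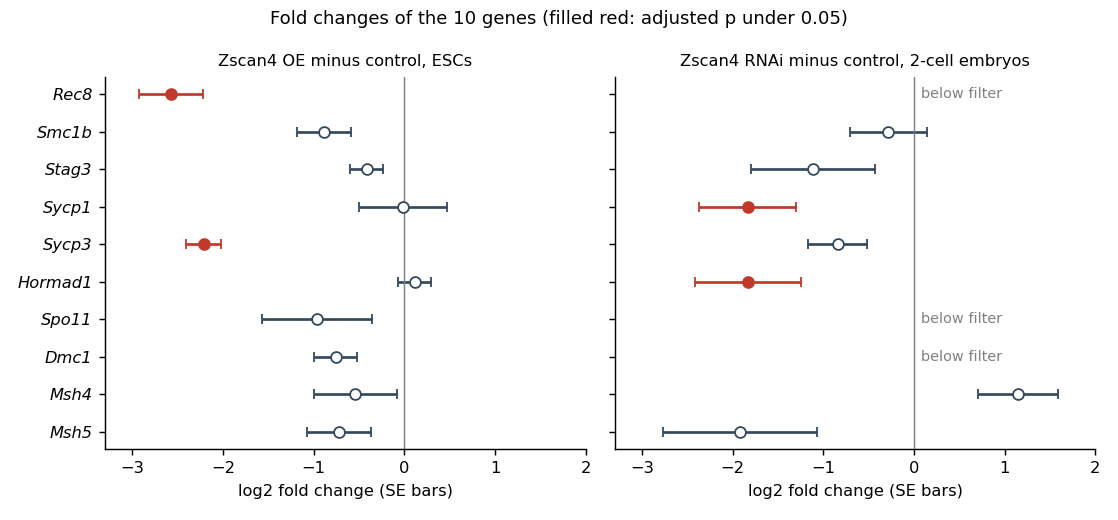
Log2 fold changes of the 10 genes on the horizontal axis, Zscan4 OE minus control in ESCs and Zscan4 RNAi minus control in embryos, with standard error bars and red filled points for adjusted p below 0.05. Rec8 and Sycp3 are filled in ESCs, Sycp1 and Hormad1 in embryos, and Msh4 is the only gene to the right of 0 in embryos.

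No gene of the 10 was called in both experiments, where limma called 23.2% of all genes tested in ESCs and 18.2% in embryos. Only 7 of the 10 were tested in both, so few shared calls could arise and their absence says little. Sycp1 and Hormad1, which fell in Zscan4 RNAi embryos, had log2 fold changes of -0.02 and 0.11 in Zscan4 OE ESCs. Sycp3, which fell in Zscan4 OE ESCs, had -0.84 in Zscan4 RNAi embryos, and Rec8 had too few embryo reads to be tested. Whether the responses differ between ESCs and embryos was not tested.

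The 3 cohesin genes have counterparts that work in dividing somatic cells, and these were set beside them library by library. In ESCs, Rad21, Smc1a, Smc3, Stag1 and Stag2 were all uncalled, with log2 fold changes of -0.38, -0.22, -0.39, -0.41 and -0.38. The log2 ratio of Rec8 to Rad21, the mitotic kleisin, was -6.07 and -4.24 in Zscan4 OE, against -2.99 and -2.94 in control, a difference of -2.19. The ratio of Smc1b to Smc1a differed by -0.66, in both cases with both overexpression libraries below both controls. Stag3 to the sum of Stag1 and Stag2 differed by -0.03 and overlapped. With 2 libraries against 2 there are 6 assignments, so the smallest exact two-sided permutation p is 0.333, and both separated ratios had this value (0.5 after Benjamini-Hochberg adjustment over 3 ratios). Rad21 itself had 9091 and 4771 normalised reads in Zscan4 OE, against 8504 and 8619 in control. The overexpression library with less Rec8 had more Rad21, and also more Smc1a, Smc3, Stag1 and Stag2 (Stag2: 3389 against 1406 normalised reads). This order rests on 1 library against 1.

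**Figure D4:**
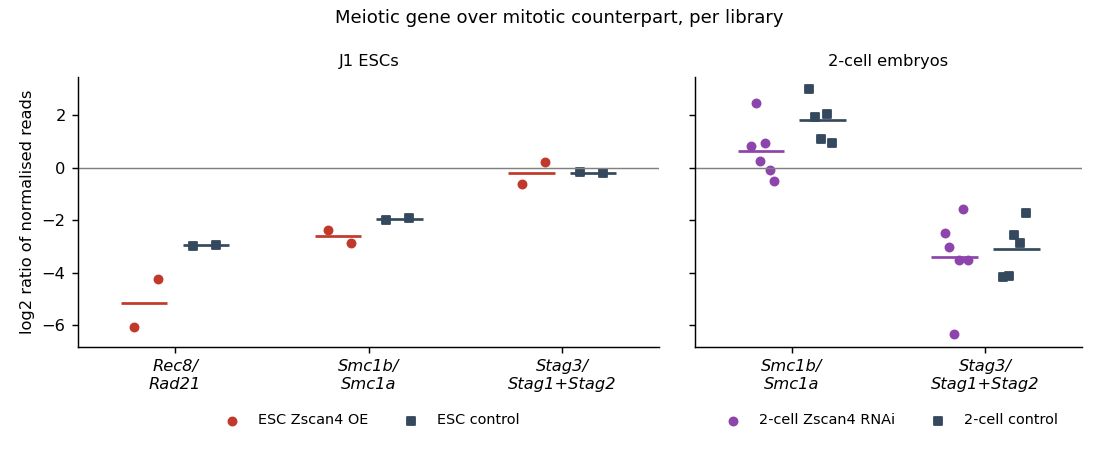
Log2 ratio of normalised reads of each meiotic gene to its mitotic counterpart on the vertical axis, with each point a library and each bar a group mean. In ESCs the Zscan4 OE points lie below the control points for Rec8 and Smc1b and on both sides of them for Stag3, and in embryos the groups overlap.

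In embryos 2 of the 5 mitotic cohesin genes fell, where limma called 18.2% of all genes tested and 12.0% lower. Stag2 fell, with 10.4 to 35.3 normalised reads in Zscan4 RNAi (median 21.7), against 116, 144, 58.4, 51.5 and 39.1 in controls 1 to 5 (log2 fold change -1.73, SE 0.42, limma adjusted p = 0.00978). The core subunit Smc3 fell too, with 0 to 26.2 normalised reads in Zscan4 RNAi (median 16.8), against 62.9, 42.1, 68.2, 48.0 and 42.0 in controls 1 to 5 (-2.33, SE 0.67, limma adjusted p = 0.0214). In both genes every RNAi library lay below every control, as in 4.28% of all genes tested. Rad21 (-0.77), Smc1a (0.88) and Stag1 (-0.05) were not called. The log2 ratio of Smc1b to Smc1a was 0.65 ± 1.05 in Zscan4 RNAi (SD, n = 6) and 1.81 ± 0.82 in control (SD, n = 5), a difference of -1.16 that did not pass the exact two-sided permutation test (p = 0.0844, adjusted p = 0.169 over 2 ratios). That of Stag3 to Stag1 and Stag2 differed by -0.33 (exact permutation p = 0.742). Without RNAi library 2, which had the highest Smc1b, the Smc1b to Smc1a difference was -1.52 (exact permutation, adjusted p = 0.0159). This was the only 1 of 12 alternatives to pass. In the other 11 the difference was -1.37 to -0.86. Neither Smc1a (log2 fold change 0.88) nor Smc1b (-0.28) was called by limma.

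The other genes of meiotic prophase were taken from 8 lists of cohesin, synaptonemal complex, axis, break formation, strand exchange, crossover, telomere attachment and meiotic entry genes. In ESCs 47 of 47 passed the filter, and 4 were called higher and 5 lower, with a median log2 fold change of 0.00 against -0.02 over all genes. The called share was 19.1%, against 23.2% of all genes tested. Those lower were Cntd1, a cyclin-like crossover factor (12.9-fold), AI481877 of the crossover list (3.01-fold), Meioc, which keeps germ cells in meiotic prophase (8.21-fold), Meiob, a single-strand DNA-binding partner of recombination (6.36-fold), and Sun1, which tethers telomeres to the nuclear envelope (3.01-fold). Meioc had 409 ± 302 normalised reads in Zscan4 OE and 3358 ± 88.4 in control (SD, n = 2 each; limma adjusted p = 0.0290). Those higher were Gm4969 (23.5-fold), the synaptonemal complex gene Syce1 (3.58-fold), the piRNA factor Mael (2.13-fold) and the exonuclease gene Exo1 (1.76-fold). Syce1 had 1536 ± 468 normalised reads in Zscan4 OE and 429 ± 15.9 in control (SD, n = 2 each; limma adjusted p = 0.0217), while Sycp3 of the same complex fell. Cntd1 and Sun1 overlap genes on the opposite strand and are uncertain.

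In embryos 42 of 50 of these genes passed the filter, and 7 were called higher and 3 lower, with a median log2 fold change of 0.25 against -0.03 over all genes. The called share was 23.8%, against 18.2% of all genes tested (6.13% higher and 12.0% lower). Those higher were Syce2 (1.87-fold) and Tex12 (2.36-fold), of the central element of the synaptonemal complex, Hsf2bp (2.52-fold) and Swi5 (2.22-fold) of strand exchange, Ankrd31 of break formation, the germ cell RNA-binding protein gene Dazl (1.88-fold) and Mael (2.45-fold). Syce2 had 665 ± 193 normalised reads in Zscan4 RNAi (SD, n = 6) and 355 ± 97.8 in control (SD, n = 5; limma adjusted p = 0.0284), while the transverse filament gene Sycp1 was lower. The other 3 synaptonemal complex genes tested beside the 10 were not called. Ankrd31 had 43 reads in Zscan4 RNAi and 3 in control, a ratio of depth-scaled reads of 11.2 with an exact 95% interval of 3.59 to 56.6 that covers counting error only. Those lower were Psmc3ip, a Dmc1 cofactor (5.83-fold), Sun1 (3.11-fold) and the single-strand DNA-binding subunit gene Rpa2, with means of 52.9 normalised reads in Zscan4 RNAi and 180.01 in control (limma adjusted p = 0.0136). Psmc3ip had 13.4 ± 11.3 normalised reads in Zscan4 RNAi (SD, n = 6) and 78.0 ± 38.1 in control (SD, n = 5; limma adjusted p = 0.00487). Psmc3ip, Hsf2bp, Swi5 and Sun1 share exon bases with genes on the opposite strand and are uncertain.

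**Figure D5:**
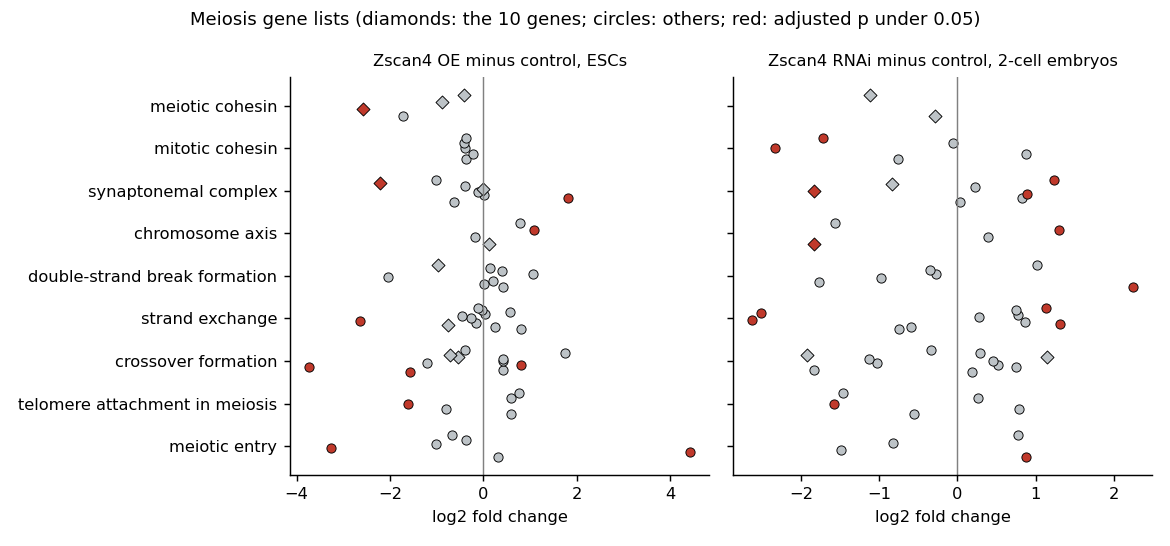
Log2 fold changes (horizontal axis) of the 10 genes (diamonds) and of the other genes in the meiosis lists and the mitotic cohesin list (circles), with adjusted p below 0.05 in red. In each experiment red points lie on both sides of 0, and the red diamonds lie on the lower side.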

How the data were processed

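Reads from 15 RNA-Seq libraries were processed with Trimmomatic, HISAT2 and featureCounts on mm10, per the submitters' processing notes; their versions, the gene annotation, the strand setting, the treatment of multi-mapping reads and the normalisation were not given in the sources used here. Each experiment has 1 table, deposited by the authors as a normalised signal, namely read counts over a library-wise size factor. The unit was recognised because 100% of the values were whole multiples of a fixed step within 0.01 of a read, so whole reads could be recovered. Median-of-ratios factors recomputed from them differed from the deposited ones by at most 0.0794%. Libraries were grouped by genotype label; the embryo control columns are numbered 1 to 5, unlike the labels, so these numbers only name libraries.

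Each experiment was fitted across all genes with limma 3.58.1 (trend, log2 with a pseudocount of 1, Benjamini-Hochberg threshold 0.05), with no covariates. Alternatives were a pseudocount of 0.5, no filter, a filter at 10, quantile normalisation, edgeR 4.0.16 and DESeq2 1.42.0 on the recovered reads, leaving out each library and, in ESCs, a replicate block. The scripts' tests were checked on simulated data. Replicate pairs all differed beyond sampling noise, and every library was counted as 1 replicate. Such a spread may be technical and does not show that the libraries are independent. Positions and exon lengths are from GENCODE vM21 (GRCm38), and promoter windows from RefSeq (GRCm38.p6). Other genes are named where they are mitotic counterparts or are, per list, up to 3 called genes with the lowest adjusted p; Chpt1, Smc3, Rpa2, Setdb1, E2f6 and Mga were added after their values were seen. A planned result is not reported here. The 10 genes and the lists were chosen with earlier results of these data known.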

Additional observations from a re-analysis of the deposited data

Results flagged for a closer look

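For the 10 genes, and for the log2 ratios of Smc1b and Stag3 to their mitotic counterparts, the highest and lowest library of each embryo group were compared with the rest, where the libraries of the group differed at all. For normally spread values, chance alone sets a library apart in about 1 in 20 groups. That rate need not hold for counts near 0, and 3 of the 22 groups tested had such a library. Dmc1 was at 24.8 normalised reads in Zscan4 RNAi library 3, against 0 to 0.687 in the other RNAi libraries. Smc1b was at 104 normalised reads in Zscan4 RNAi library 2, against 22.2 to 47.4 in the other RNAi libraries. Rec8 was at 2.93 normalised reads in control 5, with no read in the other 4 controls. A group with reads in only 1 library is always set apart by this rule, so the Rec8 result carries no weight.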

How the results depend on the processing

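Under the alternatives that keep all libraries, Rec8 and Sycp3 remained the 2 of the 10 genes called in ESCs, including with edgeR (adjusted p = 0.0132 for Rec8 and 0.00711 for Sycp3) and DESeq2 (1.52e-09 and 5.35e-09). The count of all ESC genes called was 5002 with edgeR, 5261 with DESeq2 and 4017 without a filter, against 4843 in limma. Leaving out a library moved it over 0 to 12614 (0 to 10855 with the same genes tested, 2117 to 12614 with the filter applied again, an alternative added after seeing the data) and the count of the 10 genes called over 0 to 6. With each of the 4 ESC libraries left out in turn, the log2 fold change ranged over -3.02 to -2.12 for Rec8 and -2.30 to -2.13 for Sycp3. Each such fit leaves 1 library in a group, so its calls carry little weight. In embryos, leaving out a library moved the count of all genes called over 1730 to 3578 and the count of the 10 genes over 0 to 4. Quantile normalisation called 1396 embryo genes higher and 1609 lower (46.5% higher, against 33.8% in limma) and shifted the median of all genes by 0.17; relative to that median Sycp1 was at -1.69, Hormad1 at -1.63 and Msh4 at 1.26. With edgeR 45.6% of embryo calls were higher. The near-zero ESC change of Sycp1 turned positive under quantile normalisation (0.025), edgeR and DESeq2 (0.12 each) and ranged over -0.65 to 0.62 with a library left out; that of Hormad1 ranged over -0.0033 to 0.23. The Stag3 ratio to Stag1 and Stag2 ranged over -0.45 to 0.39 in ESCs and -0.70 to 0.26 in embryos with a library left out, and the embryo ratio of Smc1b to Smc1a over -1.52 to -0.86. The cause of these changes was not tested. Replicate numbers did not pair the ESC libraries (correlation of same-numbered deviations -0.007 over 20888 genes); with a replicate block 6024 genes were called, the same 2 of the 10 among them. No paired analysis was possible in embryos because the control columns carry other numbers than the labels. In embryos, a gene with few reads such as Rec8, Dmc1 or Spo11 is limited by depth.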

Other observations

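Genes known to silence germline genes were listed too. In ESCs 4 of 12 were called higher and none lower by limma, where 11.7% of all genes tested were called higher and 11.4% lower: the DNA methyltransferase gene Dnmt3b (4.26-fold), L3mbtl2 (2.08-fold) and Pcgf6 (1.74-fold) of the E2F6 complex, and the histone methyltransferase gene Setdb1, with means of 4369 normalised reads in Zscan4 OE and 2449 in control (limma adjusted p = 0.0439). Dnmt3b had 5946 ± 2004 normalised reads in Zscan4 OE and 1397 ± 51.1 in control (SD, n = 2 each; limma adjusted p = 0.0193). E2f6 (log2 fold change 0.35) and Mga (-0.80) were not called. In embryos Cbx3, a heterochromatin protein gene, was 5.01-fold lower and L3mbtl2 2.59-fold lower, while Max was 1.81-fold higher. L3mbtl2 and Setdb1 share exon bases with genes on the opposite strand and are uncertain. Among 12 germ cell markers outside meiosis, the piRNA pathway gene Asz1 (11.8-fold) and the adenine nucleotide carrier gene Slc25a31 (2.65-fold) were higher in Zscan4 OE ESCs and the oocyte transcription factor gene Figla was 11.8-fold lower; in Zscan4 RNAi embryos Mov10l1 was 4.53-fold lower and Sohlh1, with 5 reads, 14.1-fold lower.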
